A study of Mus musculus with 15 samples.

Results

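Knockdown of Sirt1 was compared with a control small interfering RNA in primary mouse myoblasts by RNA sequencing. The libraries were chosen by their treatment label: the 5 that received RNA against Sirt1 (siSirt1) and the 5 that received the control RNA (siCtrl), 10 of the 15 libraries of the series. A further group of 5, which received RNA against Lmod1 (siLmod1), served to test how siSirt1 differed from another knockdown and entered 1 alternative fit of all 15 libraries. All groups came from muscle of wild-type (WT) C57BL/6J mice, were transfected with a lipid reagent (siRNAiMax) and were differentiated for 1 day. The libraries of every group carry the numbers 1, 2, 3, 4 and 7, and the design text speaks of 5 primary lines, so each number is taken here as 1 line that gave 1 library to each group. Values per library follow that order of lines throughout. Each line was thus transfected 1 time per group, and neither the sequences of the interfering RNAs nor the age of the animals is stated in the labels.

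SIRT1 is a deacetylase that needs NAD as a cosubstrate and acts on histones and on transcription factors, among them p53, the FoxO proteins and coactivators of metabolic genes. In muscle precursors it is known as a link between the redox state of the cell and the start of differentiation. Myoblasts express the factor MYOD while they divide, and as they leave the cell cycle they switch on myogenin, then the genes of the sarcomere, of calcium release and of the neuromuscular junction, and fuse into myotubes. The study sequenced the knockdowns to look for early transcripts downstream of the targeted genes.

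The siCtrl libraries held 26097889 to 33601761 counts and the siSirt1 libraries 21004908 to 27815744. Mitochondrially encoded transcripts took 1.92% to 2.73% of counts in siCtrl and 1.93% to 2.91% in siSirt1. The lowest number of genes with a count, 19226, was in the siSirt1 library of line 7, which also had the fewest counts. Line, not treatment, separated the libraries most: principal component 1 held 45.6% of the variance and put both libraries of line 4 at -84.3 and -89.0 and the other 8 between -6.33 and 39.8. The siSirt1 library of line 7 stood apart on the second component (18.4%), at -68.2. On the third (12.6%) the siSirt1 library lay below the siCtrl library in each line, so this component went with treatment. Line 1 went from 2.88 in siCtrl to -34.8 in siSirt1, and line 3 from -19.8 to -35.4. After removal of group means, the siSirt1 library of line 1 correlated at 0.324 with its own siCtrl library and at 0.297 with that of line 3. Its pairing with line 1 is the least certain, and the counts of called list members below are therefore also given without line 1. The labelled cell type was borne out by its markers: Myod1, the master myogenic factor, lay between 613 and 973 CPM (counts scaled to a common library size, per TMM) in the 10 libraries, and desmin (Des), the muscle intermediate filament, between 1527 and 4111 CPM. Differentiation had begun in every library, with Myog (myogenin) at 440 to 3090 CPM, lowest in line 4. Myf5, a factor of proliferating myoblasts, ran from 2.22 CPM in line 7 to 312 CPM in line 4.

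The targeted transcript was lower in every knockdown library. Sirt1 (gene ENSMUSG00000020063; chromosome 10, bases 63319005 to 63381704 of the mm10 build) measured 27.5, 18, 21.6, 28.6 and 36.3 CPM with the control RNA, against 4.62, 3.51, 3.51, 10.7 and 9.23 CPM with siSirt1. The lowest siCtrl library was above the highest siSirt1 library, so the groups did not overlap. The transcript left was 16.8%, 19.5%, 16.3%, 37.5% and 25.5% of the siCtrl level of the same line, with the most left in line 4. In TPM, a unit that also takes gene length into account, the level was 15.1 ± 4.06 in siCtrl and 4.01 ± 2.21 in siSirt1 (SD, n = 5). The exact two-sided permutation test of mean log2 CPM gave p = 0.00794, the smallest that its 252 assignments across lines allow. Swaps within the 5 lines alone (32 assignments) gave an exact p = 0.0625, also the smallest possible, so that paired form cannot pass 0.05. In edgeR's quasi-likelihood test with the line as a block, the log2 fold change was -2.18 (SE 0.19, adjusted p = 0.0027). Without the block it was -2.06 and the call was lost (adjusted p = 0.074).

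The other sirtuins did not pass the test. Sirt2, a mostly cytosolic deacetylase, lay at 116 ± 26.6 CPM in siCtrl and 113 ± 19.9 in siSirt1 (SD, n = 5). Log2 fold changes were -0.03 (SE 0.08) for Sirt2, -0.09 (SE 0.14) for the mitochondrial Sirt3, -0.18 (SE 0.12) for Sirt6 and 0.14 (SE 0.11) for Sirt7. Of 25 tested genes of the sirtuin and NAD list, 0 were higher and 1 was lower: Nmrk2, a muscle-restricted kinase of the nicotinamide riboside route to NAD, at -1.17 (SE 0.26, adjusted p = 0.037). The count was again 1 without line 1. Nampt, the rate-limiting enzyme of NAD salvage, was at 0.25 (SE 0.17, adjusted p = 0.39).

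Beyond the target, 14912 genes passed the filter on low counts and 1054 of them (7.07%) differed between siSirt1 and siCtrl at an adjusted p under 0.05, with the line as a block. There were 406 higher genes (2.72% of those tested) and 648 lower genes (4.35%). These shares are the background against which each gene list below is read. The median log2 fold change was 0.61 among the higher genes and -0.69 among the lower ones, against 0.01 over all genes tested. At least 2-fold changes were seen for 81 of the higher and 155 of the lower genes. The direction was the same in all 5 lines for 1045 of the 1054 genes (99.1%), against 25.0% of all genes tested. A test blocked by line favours genes whose lines agree. This agreement, and the line medians that follow, are thus no separate support for the calls. By line, the median log2 difference of the lower genes was -0.75, -0.52, -0.64, -0.75 and -0.67, and that of the higher genes 0.68, 0.45, 0.46, 0.65 and 0.58, smallest in line 2 for both. Without the block, 19 genes (0.127%) were called, 2 higher and 17 lower, and all 19 were among the 1054. Leaving out 1 line at a time gave 332 to 580 called genes, with 332 when line 1 was left out (72 higher and 260 lower). List counts without line 1 are to be read against these totals, not against the shares above. Every fit with a line left out has fewer libraries and called fewer genes, so a lower list count does not single out line 1. Of the 1054 genes, 246 were called in all 5 of these fits and 327 in none of them, so many calls rest on all 5 lines. Among the list members named below, those called in none of these fits were Hspa5, Ddit3, Eif2ak3, Sel1l, Cpt1a, Mymk, Dysf, Myl2, Ldb3, Hrc, Chrnd, Ak1, Capza1, Fbxo32, Fbxo31, Insr, Aen, B2m, Nfkb1, Suz12, Csnk1e, Col12a1, Farsb, Scd2, Rptor, Dnajb2, Ahsa1 and the proteasome genes Psmc4, Psmc5, Psmb3, Psmb6, Psmb7 and Psmd7.

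**Figure D1:**
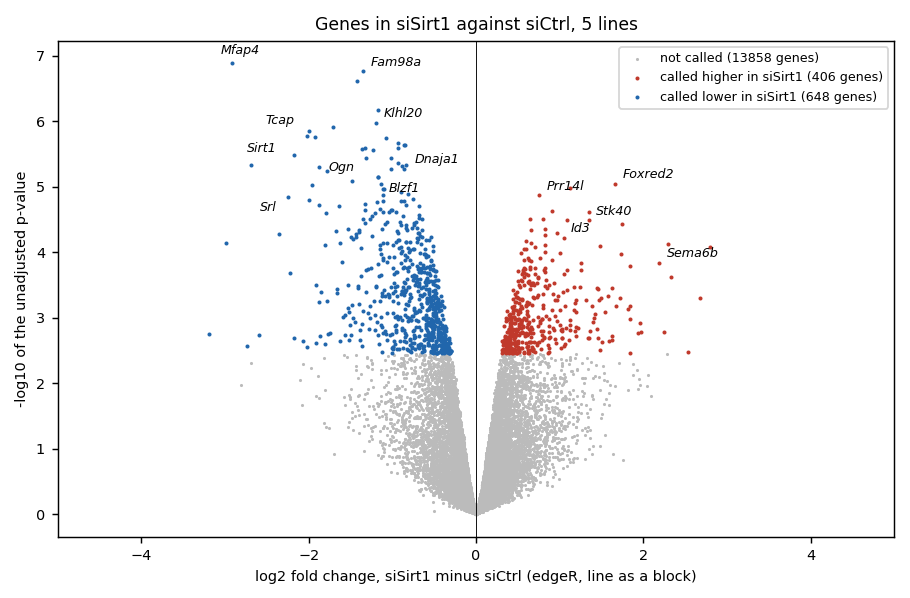
Each point is 1 of the 14912 genes tested, by log2 fold change of siSirt1 minus siCtrl (x axis) and -log10 of the unadjusted p of the blocked edgeR test (y axis). Genes called at an adjusted p under 0.05 are coloured, 406 higher and 648 lower, and Mfap4, at -2.92, lies highest of all genes.

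The 15 largest decreases among well-expressed called genes ran from -2.92 to -1.87 on the log2 scale. They were Mfap4, Adamtsl2, Tmem37, Srl, Casq1, Sirt1 itself, Mfsd2a, Fgfbp1, Tcap, Ckb, Tgm2, Adgrg1, Snai3, Lrtm1 and Ogn. The 15 largest increases ran from 1.18 to 2.19. These were Sema6b, Cep126, Foxred2, Traf5, Lfng, Gpnmb, Ak5, Stk40, Bcl2l11, Adra1b, Gxylt2, Rsad2, Hic2, Ehd3 and Cdh11. Groups did not overlap for 6 of the 15 lower and 3 of the 15 higher genes, and control levels differed widely between lines. The genes were picked for large changes in these same libraries. The share without overlap among all called or all tested genes was not computed. Whether 6 and 3 are many or few can therefore not be told.

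Some genes of the contractile apparatus fell in siSirt1. Of 58 tested sarcomere and contractile genes, 14 fell and 0 rose, and the list's median log2 fold change was -0.58. The 14 were the titin cap protein Tcap, the myosin heavy chains Myh7 and Myh4, the light chain Myl2, the skeletal actin Acta1, the troponins Tnnt1 and Tnnc1, the tropomyosin Tpm1, Mybph, Ldb3, Xirp1, Actn3, Unc45b and Lmod2. Without line 1 the count was 4. The titin cap protein gene Tcap measured 39, 73.7, 87.4, 18.4 and 52.9 CPM with the control RNA, against 8.73, 13.6, 20.3, 7.59 and 13.5 CPM with siSirt1. It was lower in each line, and the groups overlapped, with line 4 low in both. The fall was 4.00-fold (log2 fold change -2.0, SE 0.16, adjusted p = 0.0024). Acta1, which forms the thin filament, measured 8380, 8173, 5623, 4876 and 8166 CPM with the control RNA, against 3399, 5350, 5106, 2040 and 3823 CPM with siSirt1, with the smallest difference in line 3. It fell by 0.88 on the log2 scale (SE 0.19, adjusted p = 0.033) and was called in 1 of the 5 fits that left out a line. Myh7, the slow myosin heavy chain, fell by 1.39 (SE 0.18, adjusted p = 0.0073). In contrast, the embryonic myosin Myh3, at 13157 ± 7019 CPM in siCtrl and 8676 ± 4395 in siSirt1 (SD, n = 5), did not pass (-0.66, SE 0.16, adjusted p = 0.052).

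Over the sarcomere list, line medians were -0.42, -0.20, 0.04, -1.12 and -1.09, so lines 4 and 7 carried most of the decrease and line 3 none. In a bulk sample, fewer differentiated cells and less of these transcripts per cell cannot be told apart. Myog, which drives this programme, went with the lines in the same way: its log2 difference was -0.10, -0.00, 0.16, -0.95 and -0.80, and it did not pass the test (-0.34, SE 0.18, adjusted p = 0.28). Its part in the sarcomere result was not tested.

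**Figure D2:**
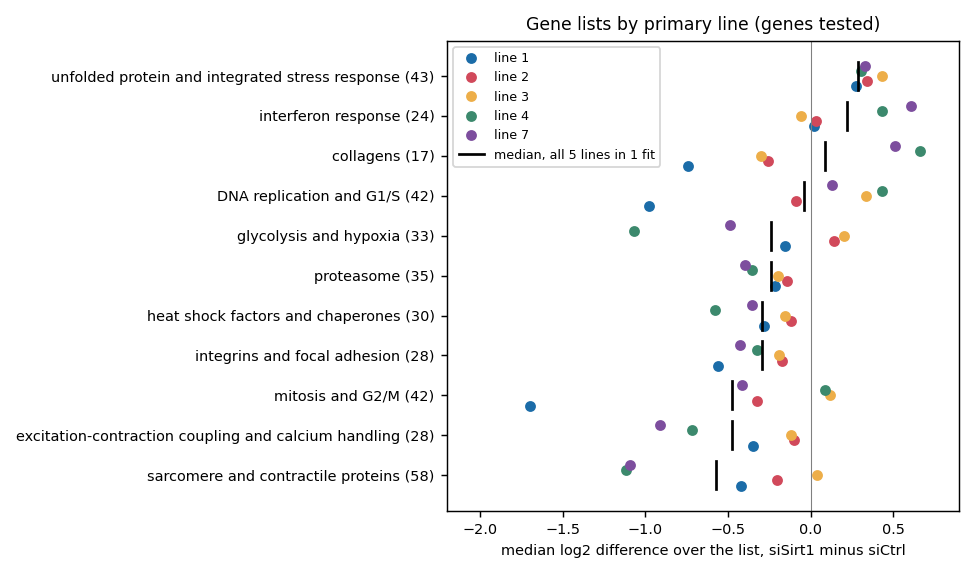
Points give each list's median log2 difference between siSirt1 and siCtrl in each line, and black bars the median over the list in the fit of all 5 lines. The sarcomere list runs from -1.12 in line 4 to 0.04 in line 3, whereas the stress response list is above 0 in all 5 lines.

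Calcium handling held some of the largest decreases. Of 28 tested genes for excitation-contraction coupling, 6 fell (Srl, Casq1, Cacna2d1, Asph, Cacng1 and Hrc) and 1 rose (S100a1, a calcium-binding protein, 0.95). The list's median was -0.48. Without line 1, 4 fell and 0 rose. Srl encodes sarcalumenin, a calcium-binding glycoprotein of the sarcoplasmic reticulum, and measured 1395, 2866, 1704, 483 and 1981 CPM with the control RNA, against 348, 943, 535, 60.9 and 251 CPM with siSirt1. Every line fell, lines 4 and 7 the most, although control levels ranged from 483 CPM in line 4 to 2866 CPM in line 2. The decrease was 4.74-fold (log2 fold change -2.24, SE 0.24, adjusted p = 0.0051). Casq1, the calcium store protein calsequestrin of fast muscle, measured 73.3, 78.5, 44.5, 26 and 106 CPM with the control RNA, against 8.33, 32.4, 21.5, 4.51 and 11.7 CPM with siSirt1. It fell 4.66-fold (log2 fold change -2.22, SE 0.35, adjusted p = 0.013), with the smallest difference in line 3 and the largest in line 7. Cacna2d1, the auxiliary subunit of the dihydropyridine receptor, fell with no overlap of the groups, from 319 ± 90.7 to 124 ± 42.7 CPM (SD, n = 5; log2 fold change -1.37, SE 0.12, adjusted p = 0.0024).

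At the neuromuscular junction, 6 of 18 tested genes fell and 0 rose (median -0.37), with 4 lower when line 1 was left out. Among them were the sodium channel gene Scn4a, the agrin receptor Lrp4, the adhesion molecule Ncam1 and the acetylcholine receptor subunits Chrng and Chrnd. Lrp4, which binds agrin and activates MuSK, measured 597, 322, 341, 329 and 426 CPM with the control RNA, against 241, 199, 134, 190.4 and 268 CPM with siSirt1. Its groups did not overlap (log2 fold change -0.96, SE 0.13, adjusted p = 0.0085). Ncam1 went from 1467 ± 132 to 925 ± 111 CPM (SD, n = 5) and fell by similar amounts in each line, from 0.54 to 0.79 on the log2 scale. Chrng, the fetal subunit that is replaced after innervation, fell by 0.66 (SE 0.10, adjusted p = 0.013).

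**Figure D3:**
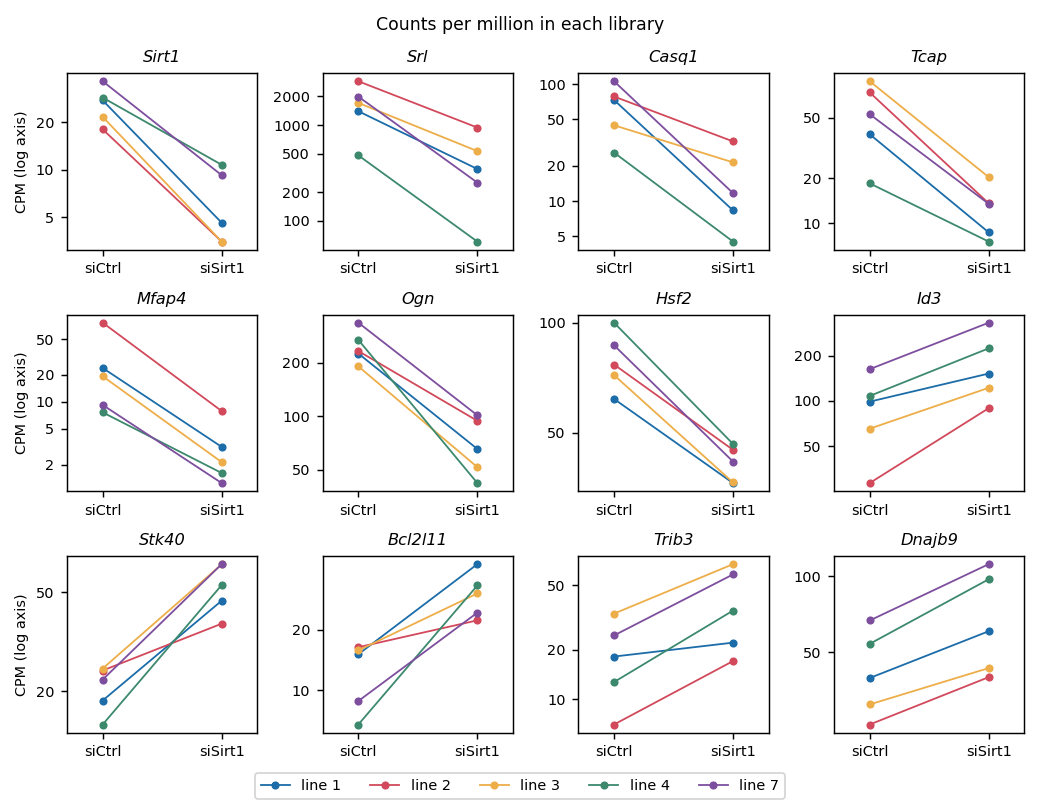
CPM (log axes) of 12 genes in the siCtrl and siSirt1 library of each line, joined by line. Sirt1, Srl, Casq1, Tcap, Mfap4, Ogn and Hsf2 fall along all 5 lines, and Id3, Stk40, Bcl2l11, Trib3 and Dnajb9 rise along all 5.

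Energy transfer genes typical of muscle followed, with 5 of 23 tested genes lower, 0 higher and a median of -0.53. They were Mb, Art1, Phka1, Pgam2 and Ak1, and 2 were called without line 1. Myoglobin (Mb), the oxygen-binding protein of muscle, measured 479, 375, 311, 267 and 222 CPM with the control RNA, against 66.7, 119, 168, 151 and 91.5 CPM with siSirt1. The groups did not overlap, and line 1 went from the highest control level to the lowest knockdown level (log2 fold change -1.48, SE 0.28, adjusted p = 0.022; called in 3 of the 5 fits without a line). Ckb, the brain-type creatine kinase that precedes the muscle form, was outside this list and measured 739, 662, 631, 296 and 585 CPM with the control RNA, against 104, 211, 283, 65.6 and 131 CPM with siSirt1. It fell in each line with no overlap (log2 fold change -2.0, SE 0.22, adjusted p = 0.0053). Phka1, a regulatory subunit of phosphorylase kinase, fell by 0.55 (SE 0.08, adjusted p = 0.013).

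Genes for fusion and the membrane skeleton were partly lower. Of 30 fusion and adhesion genes, 7 fell and 0 rose, with Jam2 (-1.25), Cav3 (-0.68), Cd81 (-0.59), Dysf (-0.58), Mymk (-0.54), Itgb1 (-0.51) and Crk (-0.42). Without line 1, 2 fell. Mymk encodes myomaker, a membrane protein required for fusion, and its call did not survive the omission of any line. Mymx, which encodes the partner fusogen, was at 0.22 (SE 0.17, adjusted p = 0.47). Of 20 genes of the dystrophin complex, 3 fell (15%, against 4.35% of all genes tested), Sspn and Cav3 among them. None of the 3 did without line 1.

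Actin genes and targets of SRF fell in 7 of 36 cases, with 0 higher: Myl9, Lmod1, Tagln, Acta2, Cnn2, Tpm1 and Capza1. Only 1 of the 36 was called without line 1. Myl9, a regulatory light chain of nonmuscle and smooth muscle myosin, fell by 1.33 (SE 0.12, adjusted p = 0.0024), from 65.8 ± 52.4 to 25.1 ± 19.8 CPM (SD, n = 5). Lmod1, the actin filament nucleator targeted in the third group, fell by 0.96 (SE 0.19, adjusted p = 0.027). It kept its call in 2 of the 5 fits that left out a line.

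Matrix genes gave the largest single decreases. Of 35 tested matrix and matricellular genes, 8 fell and 0 rose (Mfap4, Adamtsl2, Ltbp2, Ltbp1, Igfbp5, Sparc, Nid2 and Hspg2), with a median of -0.24, and 2 fell without line 1. Mfap4, a microfibril-associated glycoprotein that binds elastin and fibrillin, measured 23.8, 76.3, 19.3, 7.63 and 9.23 CPM with the control RNA, against 3.14, 7.89, 2.13, 1.61 and 1.24 CPM with siSirt1. It fell in every line, 7.58-fold over all (log2 fold change -2.92, SE 0.17, adjusted p = 0.0012), while the level in line 2 was far above the other lines in both groups. Adamtsl2, a secreted glycoprotein that binds the latent TGF-beta binding protein Ltbp1, measured 78.1, 131, 57.9, 28.4 and 51.9 CPM with the control RNA, against 6.09, 27.2, 6.94, 8.15 and 7.94 CPM with siSirt1. Again line 2 was highest in both groups, and the groups only just failed to meet, at 28.4 CPM in siCtrl and 27.2 CPM in siSirt1 (log2 fold change -2.70, SE 0.25, adjusted p = 0.003). Ltbp1, which holds latent TGF-beta in the matrix, fell by 0.80 (SE 0.15, adjusted p = 0.02), and Hspg2, which encodes perlecan, by 0.50 (SE 0.08, adjusted p = 0.016).

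Among the small leucine-rich proteoglycans, 1 of 8 fell and 1 rose, and without line 1 the counts were 1 and 0. Ogn encodes osteoglycin, a secreted proteoglycan of muscle and bone matrix, and measured 225, 233, 191, 269 and 336 CPM with the control RNA, against 65.4, 94.2, 51.6, 42 and 101 CPM with siSirt1. The groups did not overlap (log2 fold change -1.87, SE 0.18, adjusted p = 0.003), and Ogn was also called without the block. Dcn (decorin) was called higher at 1.85, but with 0.292 ± 0.197 CPM in siCtrl and 1.13 ± 0.993 in siSirt1 (SD, n = 5) it lay near the detection floor, where 3 counts equal 0.0893 to 0.143 CPM. The collagens gave 1 higher gene of 17, Col12a1 (0.60), and 0 lower, with no call without line 1. Their median was -0.74, -0.26, -0.30, 0.66 and 0.51 by line, so direction differed between lines.

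Matrix crosslinkers and proteases fell in 4 of 30 cases (13.3%, against 4.35% of all genes tested), with 0 higher. They were the lysyl oxidases Lox (-1.20) and Loxl1 (-1.27), the lysyl hydroxylase Plod2 (-0.85) and Mmp15 (-0.51). Without line 1, 2 were lower. Integrin and focal adhesion genes fell in 5 of 28 cases with 0 higher (Itgb8, Itga7, Parva, Itgav and Itgb1; median -0.30), and in 3 without line 1. Itga7, the laminin receptor of muscle, measured 1363, 814, 607, 4044 and 915 CPM with the control RNA, against 464, 581, 328, 2254 and 591 CPM with siSirt1. It fell in each line, and line 4 was several times above the other lines in both groups (log2 fold change -0.88, SE 0.15, adjusted p = 0.018).

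Most myogenic regulators did not pass the test. Of 22 tested regulators, 3 rose (13.6%, against 2.72% of all genes tested) and 0 fell. The 3 were Id3, Id1 and Eya1, with 2 of them called without line 1. ID proteins lack a DNA-binding region and block the bHLH factors. Id3 measured 98.7, 28.4, 65.3, 108 and 162 CPM with the control RNA, against 152, 89.3, 122, 223 and 330.5 CPM with siSirt1. Each line rose, line 2 from the lowest control level by the most (log2 fold change 1.05, SE 0.14, adjusted p = 0.0081). Id1 rose by 0.87 (SE 0.20, adjusted p = 0.038) and kept its call in 1 of the 5 fits that left out a line, and Eya1, a transcriptional cofactor in early myogenesis, by 0.62 (SE 0.11, adjusted p = 0.021). Myod1 was at 0.13 (SE 0.10, adjusted p = 0.49), Myf5 at -0.22 (SE 0.18, adjusted p = 0.47) and Pax7, the marker of satellite cells, at 0.34 (SE 0.19, adjusted p = 0.3).

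Among 18 satellite cell and myoblast markers, 1 rose (Sdc4, 0.68) and 3 fell (Spry1, Itga7 and Ncam1), as they also did without line 1. Spry1 is an inhibitor of receptor tyrosine kinase signalling that is known from quiescent satellite cells. It measured 53, 48.4, 30.1, 57.3 and 43 CPM with the control RNA, against 11.3, 28.8, 11.5, 16.6 and 15.4 CPM with siSirt1. The groups did not overlap (log2 fold change -1.52, SE 0.19, adjusted p = 0.0073).

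The replication and mitosis lists gave no call. None of 42 genes for DNA replication and none of 42 for mitosis passed the edgeR test in either direction, at medians of -0.04 and -0.48. By line, the mitosis list measured -1.70, -0.32, 0.11, 0.09 and -0.42 and the replication list at -0.98, -0.09, 0.34, 0.43 and 0.13, lowest for both in line 1. Mki67, the proliferation marker, went from 49.2 ± 50 to 39.7 ± 37.7 CPM (SD, n = 5) and did not pass (-0.21, SE 0.38, adjusted p = 0.78). Of 16 D cyclins, CDKs and CDK inhibitors, 2 fell, and 1 without line 1. Cdkn1a encodes p21, which halts the cycle as myoblasts differentiate, and measured 2394, 3343, 2635, 1813 and 2138 CPM with the control RNA, against 1684, 2265, 1707, 881 and 1015 CPM with siSirt1. All 5 lines fell, lines 4 and 7 the most (log2 fold change -0.76, SE 0.12, adjusted p = 0.014). Cdk2 fell by 0.88 (SE 0.15, adjusted p = 0.016).

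Genes of the p53 and cell death lists moved in both directions. Of 29 p53 targets, 6 fell (Eda2r, Cdkn1a, Pmaip1, Zmat3, Tnfrsf10b and Aen) and 1 rose (Sesn2), with 3 lower and 0 higher without line 1. The transcript of p53 itself, Trp53, was at 0.22 (SE 0.14, adjusted p = 0.36). Of 23 BCL2 family and apoptosis genes, 6 fell and 2 rose, and 4 and 1 without line 1. The decreases took in the pro-survival Bcl2l2 (BCL-W) and Cflar and the pro-death Bok, Bid and Pmaip1 (NOXA). The increases were the pro-survival Bcl2l1 (BCL-X), at 0.51 (SE 0.08, adjusted p = 0.013), and Bcl2l11. Bcl2l11 encodes BIM, a pro-death BH3-only protein and a known FoxO target, and measured 15.1, 16.3, 15.8, 6.74 and 8.82 CPM with the control RNA, against 42.3, 22.2, 30.3, 33.1 and 24.3 CPM with siSirt1. The groups did not overlap (log2 fold change 1.32, SE 0.24, adjusted p = 0.02; called in 3 of the 5 fits without a line), and the difference was smallest in line 2.

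Of 29 FoxO targets and muscle ubiquitin ligases, 4 rose (Bcl2l11, Txnip, Fbxo32 and Insr) and 1 fell (Fbxo31), and none was called without line 1. Fbxo32 encodes atrogin-1, the ubiquitin ligase of atrophying muscle, and went from 59.9 ± 9.79 to 85.8 ± 3.27 CPM (SD, n = 5; log2 fold change 0.53, SE 0.11, adjusted p = 0.033). Txnip, an inhibitor of thioredoxin, rose by 1.06 (SE 0.20, adjusted p = 0.022). Foxo1 and Foxo3, whose proteins are deacetylated by SIRT1, were at -0.10 and -0.39, and neither passed (adjusted p = 0.58 and 0.054).

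Genes of the unfolded protein response and the integrated stress response had the largest share called higher of the 52 lists. Of 43 tested genes, 13 rose (30.2%, against 2.72% of all genes tested), 1 fell and the median was 0.28. By line the median was 0.28, 0.34, 0.43, 0.30 and 0.33, so each line took part. Without line 1, 7 rose and 0 fell. When unfolded proteins collect in the endoplasmic reticulum, the sensors PERK, IRE1 and ATF6 cut translation and switch on chaperones and degradation genes. The list was compiled with earlier results of these data known.

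The chaperones and folding enzymes among the 13 were Hspa5, Dnajb9, Pdia4, Manf and Creld2, and the degradation genes Herpud1 and Sel1l. Hspa5 encodes BiP, the main chaperone of the endoplasmic reticulum, and measured 769, 606, 685, 1111 and 1367 CPM with the control RNA, against 1078, 785, 824, 1865 and 2104 CPM with siSirt1. Every line rose, and the groups overlapped, with lines 4 and 7 high in both (log2 fold change 0.50, SE 0.10, adjusted p = 0.028). Its call, like those of Ddit3, Eif2ak3 and Sel1l, ended whichever line was left out, and Dnajb9 and Trib3 kept theirs in all 5 fits. Dnajb9, a BiP cochaperone induced through IRE1, measured 39.6, 26, 31.2, 54.1 and 66.9 CPM with the control RNA, against 60.7, 40.0, 43.4, 97.3 and 112 CPM with siSirt1. It rose 1.58-fold, by similar amounts in each line (log2 fold change 0.66, SE 0.08, adjusted p = 0.0073). The PERK branch was represented by Eif2ak3, the gene of PERK itself (0.58), and by Ddit3 (CHOP, 0.80), Trib3, Atf3 (0.73), Nupr1 (1.12) and Sesn2 (0.56). Trib3, a pseudokinase induced by ATF4 and CHOP, measured 18.2, 6.99, 33.4, 12.7 and 24.6 CPM with the control RNA, against 22.2, 17.1, 67.1, 34.9 and 58 CPM with siSirt1. It rose 2.08-fold (log2 fold change 1.05, SE 0.17, adjusted p = 0.013), least in line 1. Atf4 was at 0.19 (SE 0.13, adjusted p = 0.41). The exception was Ddit4, an mTORC1 inhibitor, which fell by 0.85 (SE 0.14, adjusted p = 0.015). The largest estimate of the list, Vldlr at 1.60, did not pass (SE 0.49, adjusted p = 0.089). Transfer RNA synthetases, many of which ATF4 also induces, gave 0 higher and 2 lower genes of 20, Farsb and Iars, and 0 without line 1.

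**Figure D4:**
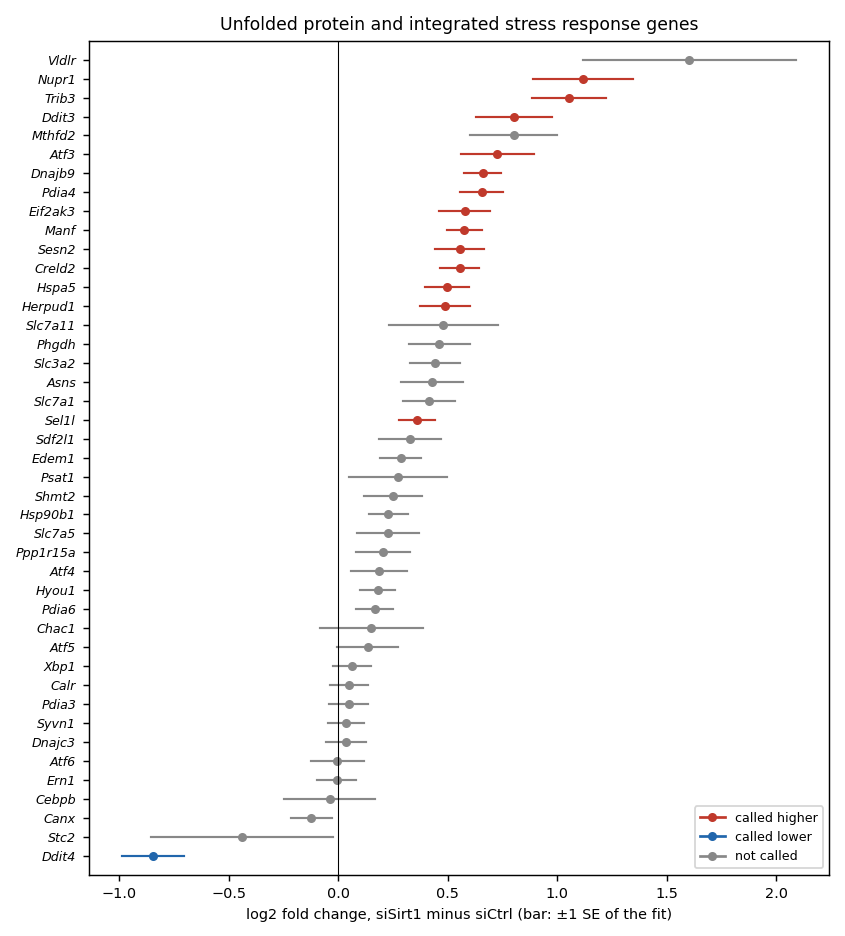
Log2 fold changes (points) with 1 standard error of the fit to each side (bars) for the 43 tested genes of the stress response list (unfolded protein and integrated). In red are the 13 genes called higher, from Sel1l at 0.36 to Nupr1 at 1.12, and in blue Ddit4 at -0.85.

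Promoters of 4 of these genes are printed because they carry the known elements of both branches near the start site. RefSeq windows (GRCm38.p6, 250 bases before to 50 after a gene's start) matched 39 of the 43 genes, and both strands were searched. The element of ATF6 (ERSE) was taken as CCAAT, 9 bases of any kind, then CCACG, a second form (ERSE-II) as ATTGG, 1 base of any kind, then CCACG, and the ATF4 and CHOP element (CARE) as TGATG, 1 base of any kind, then AA. The 3 patterns do not contain one another. Capitals mark the match within the 250 bases before the start, written in the direction of transcription. Hspa5 (chr2:34771840-34772089, plus strand) and Creld2 (chr15:88819396-88819645, plus strand) have an ERSE, Herpud1 (chr8:94386179-94386428, plus strand) an ERSE-II and a CARE, and Nupr1 (chr7:126625471-126625720, minus strand) a CARE.
Hspa5: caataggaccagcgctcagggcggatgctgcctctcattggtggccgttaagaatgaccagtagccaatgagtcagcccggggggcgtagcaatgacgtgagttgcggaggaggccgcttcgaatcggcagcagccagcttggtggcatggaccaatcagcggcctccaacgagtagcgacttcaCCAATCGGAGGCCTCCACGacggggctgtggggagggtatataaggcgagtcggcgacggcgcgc
Creld2: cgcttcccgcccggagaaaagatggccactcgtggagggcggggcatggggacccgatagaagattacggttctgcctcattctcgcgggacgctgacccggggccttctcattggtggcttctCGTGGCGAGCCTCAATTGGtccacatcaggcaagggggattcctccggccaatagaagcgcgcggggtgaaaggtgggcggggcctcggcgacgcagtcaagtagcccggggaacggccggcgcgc
Herpud1: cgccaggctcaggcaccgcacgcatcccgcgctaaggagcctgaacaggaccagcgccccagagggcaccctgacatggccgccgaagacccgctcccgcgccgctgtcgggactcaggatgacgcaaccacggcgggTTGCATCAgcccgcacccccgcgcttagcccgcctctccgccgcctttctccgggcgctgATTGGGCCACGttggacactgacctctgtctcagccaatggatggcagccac
Nupr1: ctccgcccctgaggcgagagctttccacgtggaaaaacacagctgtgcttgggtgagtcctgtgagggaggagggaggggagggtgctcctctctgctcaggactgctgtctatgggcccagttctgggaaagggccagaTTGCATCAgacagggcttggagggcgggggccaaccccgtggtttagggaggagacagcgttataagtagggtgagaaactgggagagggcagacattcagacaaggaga
The matches start 65 bases (Hspa5), 126 bases (Creld2), 52 and 112 bases (Herpud1) and 110 bases (Nupr1) before the start site. Over all 32851 windows, 0.119% had an ERSE, 0.0365% an ERSE-II and 3.97% a CARE. An ERSE was found for 2 of the 12 higher genes with a window and for 6 of the 26 that were not called, and a CARE for 4 and 4. A match describes letters in this window, and the absence of one says nothing of the factor.

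Of 30 heat shock factors and chaperones, 7 fell and 0 rose (median -0.30), and 4 fell without line 1. They were the small heat shock proteins Hspb7 (-1.63) and Hspb3 (-1.20), which are typical of muscle, Hsf2, Dnaja1, Hspa4l (-0.64), Dnajb2 (-0.42) and Ahsa1 (-0.35). Hsf2, a heat shock transcription factor, measured 61.9, 76.8, 71.9, 100.03 and 86.8 CPM with the control RNA, against 36.4, 44.9, 36.5, 46.6 and 41.7 CPM with siSirt1. The groups did not overlap (log2 fold change -0.94, SE 0.09, adjusted p = 0.003). Dnaja1, an HSP40 cochaperone, measured 198, 213, 207, 241 and 219 CPM with the control RNA, against 119, 131, 113, 123 and 107 CPM with siSirt1. Levels were alike in the 5 lines of each group, with no overlap (log2 fold change -0.86, SE 0.08, adjusted p = 0.003), and both genes were also called without the block.

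All 35 proteasome genes had a negative log2 fold change, and 8 of them fell (Psmd2, Psmb5, Psmc4, Psmc5, Psmb7, Psmd7, Psmb6 and Psmb3). Measured in the same libraries, the 35 signs are not separate results. The median was -0.24, against 0.01 over all genes tested. By line the list's median was -0.21, -0.15, -0.20, -0.36 and -0.39. Without line 1 only Psmd2 remained, a non-ATPase subunit of the regulatory cap. Psmd2 measured 682, 642, 558, 703 and 481 CPM with the control RNA, against 443, 456, 363, 389 and 254 CPM with siSirt1. Its groups did not overlap (log2 fold change -0.70, SE 0.09, adjusted p = 0.0081). Cytosolic ribosomal proteins gave 0 calls among 40 genes in either direction, at a median of 0.02.

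**Figure D5:**
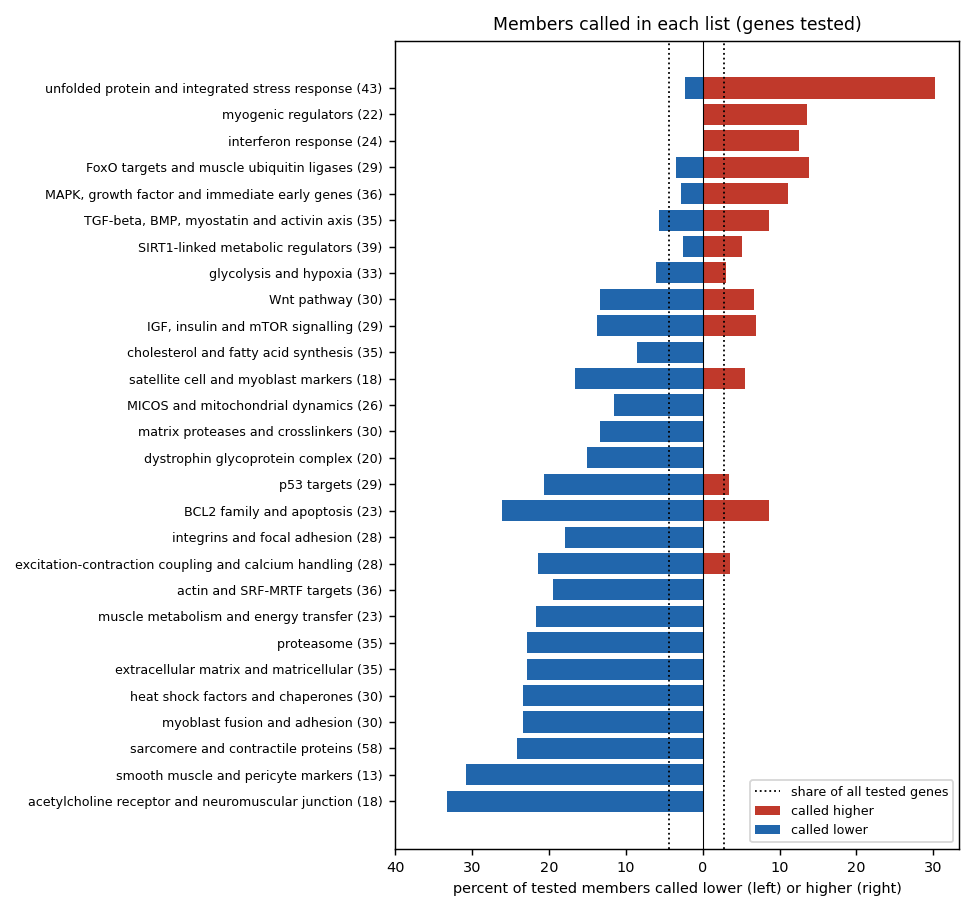
Percent of tested members called lower (left, blue) or higher (right, red) for each list with at least 3 called members, with the number of genes tested in parentheses. Dotted lines mark the shares over all genes tested, 4.35% lower and 2.72% higher. The stress response list reaches 30.2% higher, and the neuromuscular junction list 33.3% lower.

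The 19 genes called without the block were tested against the spread between lines. That test favours genes whose lines are alike, so likeness of the lines is no separate support for these calls. Fam98a, which encodes an RNA-binding protein, measured 68.7, 76.1, 72.5, 77.4 and 72.5 CPM with the control RNA, against 26.6, 28.1, 30.9, 27.3 and 31.1 CPM with siSirt1. All 5 lines were alike in each group and the groups lay far apart (log2 fold change -1.35, SE 0.08, adjusted p = 0.0012). The other lower genes were Klhl20 (an adaptor of a cullin 3 ubiquitin ligase, -1.19), Blzf1 (a golgin, -1.18), Chchd3 (a subunit of the MICOS complex of mitochondrial cristae, -1.17), Prkar2a (which anchors and restrains protein kinase A, -1.08), Tmx1 (-1.38), Rprd1a (-1.01), Carnmt1 (-0.92), Akr1a1 (-0.85), Tmem129 (-0.84), Mcur1 (-0.84), Usp25 (-0.82), Yif1a (-0.70), Rnf20 (a histone H2B ubiquitin ligase, -0.68) and, as given above, Ogn, Hsf2 and Dnaja1. The higher ones were Prr14l (0.76) and Stk40. Stk40 encodes a pseudokinase and measured 18.4, 24.3, 24.7, 14.7 and 22.3 CPM with the control RNA, against 46.2, 37.4, 64.7, 53.4 and 64.8 CPM with siSirt1. No siSirt1 library was as low as any siCtrl library (log2 fold change 1.35, SE 0.16, adjusted p = 0.0066).

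A few members of each list of secreted and surface signals were called. Sema6b, a semaphorin, gave the largest increase of the well-expressed genes and measured 12, 19.7, 40.4, 2.32 and 63.3 CPM with the control RNA, against 127, 79.5, 160.1, 16.6 and 117 CPM with siSirt1. All 5 lines rose, while control levels ranged from 2.32 CPM in line 4 to 63.3 CPM in line 7 (log2 fold change 2.19, SE 0.33, adjusted p = 0.012). In the Notch list, 2 of 26 genes rose (7.69%) and 0 fell. Of all genes tested, 2.72% were called higher, 4.35% lower and 7.07% in either direction. The 2 genes were the ligand Dll1 (0.69, SE 0.12, adjusted p = 0.019) and Lfng, a glycosyltransferase that modifies Notch receptors. Lfng measured 14.9, 5.19, 3.92, 3.71 and 11 CPM with the control RNA, against 32.1, 13.3, 8.40, 26.4 and 19.5 CPM with siSirt1. It rose in each line and by far the most in line 4 (log2 fold change 1.42, SE 0.28, adjusted p = 0.026; called in 2 of the 5 fits without a line). Hes1, a Notch target, was at -0.01 (SE 0.21, adjusted p = 0.99). Neither Dll1 nor Lfng was called without line 1.

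Of 30 Wnt pathway genes, 4 fell (Wnt9a, Fzd2, Wnt5a and Lrp5) and 2 rose (the receptor Fzd1 and the secreted potentiator Rspo3), with 2 and 2 called without line 1. Wnt9a went from 136 ± 35 to 65.2 ± 17.7 CPM (SD, n = 5; log2 fold change -1.07, SE 0.16, adjusted p = 0.011). Of 35 genes of the TGF-beta, BMP, myostatin and activin list, 2 fell, Tgfb3 (-1.0) and Fst. Another 3 rose, Id3, Id1 and the activin receptor Acvr1b (0.62). The lower share was 5.71%, against 4.35% of all genes tested, and the higher share 8.57%, against 2.72%. Without line 1, 1 was called in each direction. Fst encodes follistatin, a secreted antagonist of myostatin and activin that favours muscle growth, and measured 186, 506, 165, 92.4 and 377 CPM with the control RNA, against 131, 170.0, 83, 57.7 and 193 CPM with siSirt1. It fell in each line, most in line 2 (log2 fold change -0.94, SE 0.15, adjusted p = 0.013).

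In the IGF, insulin and mTOR list, 4 of 29 genes fell (Ddit4, Deptor, Igfbp5 and Rptor) and 2 rose (Igfbp4 and Insr), with 1 lower and 0 higher without line 1. Deptor, an inhibitor of mTOR, went from 390 ± 92.2 to 236 ± 65.5 CPM (SD, n = 5; log2 fold change -0.74, SE 0.09, adjusted p = 0.0068). Of 36 growth factor and immediate early genes, 4 rose (Fgfr1, Atf3, Spry4 and Myc) and 1 fell (Spry1), and only Spry1 was called without line 1. Myc, a growth-promoting transcription factor, measured 12.6, 8.65, 16.7, 18.9 and 18.4 CPM with the control RNA, against 20.6, 10.04, 30.4, 79 and 56.9 CPM with siSirt1. Lines 4 and 7 rose the most and line 2 hardly moved (log2 fold change 1.11, SE 0.25, adjusted p = 0.039), and the call held in 1 of the 5 fits that left out a line. Spry1 and Spry4, inhibitors of the same receptor pathway, moved in opposite directions, at -1.52 and 0.93.

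Few metabolic regulators passed. Of 39 genes linked to SIRT1 in metabolism, 2 rose and 1 fell (Esrrb, -1.49), in both directions together a share near the background. The higher share was 5.13%, against 2.72% of all genes tested, and the lower share 2.56%, against 4.35%. None was called without line 1. Cpt1a, which brings fatty acids into mitochondria, measured 95.5, 50.4, 77.7, 59.1 and 84.3 CPM with the control RNA, against 129, 68.5, 112, 156 and 185 CPM with siSirt1. It rose in each line, lines 4 and 7 the most (log2 fold change 0.79, SE 0.16, adjusted p = 0.028), and lost its call whichever line was left out. Pparg, the master factor of fat cells, measured 2.77, 0.442, 1.85, 0.820 and 2.21 CPM with the control RNA, against 6.46, 3.10, 6.12, 1.68 and 5.50 CPM with siSirt1, a low level in both groups. It rose in each line (log2 fold change 1.57, SE 0.28, adjusted p = 0.019; called in 3 of the 5 fits without a line). Ppargc1a, whose protein PGC-1alpha is deacetylated by SIRT1, was at 0.32 (SE 0.12, adjusted p = 0.14).

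Of 49 nuclear genes of oxidative phosphorylation, 48 had a negative log2 fold change, but 1 passed (0 without line 1). The genes share the same libraries, so these signs are not separate results. The median was -0.20, against 0.01 over all genes tested. By line it was -0.24, 0.001, -0.01, -0.47 and -0.24, with almost no decrease in lines 2 and 3. The MICOS and mitochondrial dynamics list gave 3 lower genes of 26 with and without line 1: Chchd3, the calcium uniporter regulator Mcur1 and the fission adaptor Mief2 (-0.75). Mitochondrially encoded transcripts gave 0 calls of 13. Glycolysis and hypoxia genes gave 2 lower (Egln3, an oxygen-sensing prolyl hydroxylase, at -1.50, and Ddit4) and 1 higher (Car9, 1.18) of 33, with list medians of -0.16, 0.14, 0.20, -1.07 and -0.49 by line. Without line 1 the glycolysis and hypoxia counts were 1 lower and 0 higher. Cholesterol and fatty acid genes gave 3 lower of 35 (Me1, Sc5d and Scd2), and autophagy genes 1 in each direction of 42, and none of either list was called without line 1.

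Of 24 interferon response genes, 3 rose and 0 fell (Rsad2, Ddx60 and B2m), with 1 called without line 1, and by line the median of the list was 0.02, 0.03, -0.06, 0.43 and 0.61. B2m, the light chain of MHC class I, went from 140 ± 38.8 to 186 ± 47.5 CPM (SD, n = 5; log2 fold change 0.42, SE 0.09, adjusted p = 0.033). Rsad2 (viperin) and Ddx60, each called in 1 of the 5 fits without a line, lay at 8.63 ± 5.27 and 0.888 ± 0.691 CPM in siSirt1. Of 16 NF-kB and inflammatory genes, 2 rose: Nfkb1 (0.40) and the chemokine Cxcl10, at 2.66 ± 4.98 CPM in siSirt1 (SD, n = 5). Most of the Cxcl10 level came from line 3, at 3.12 CPM in siCtrl and 11.6 CPM in siSirt1. In the other lines Cxcl10 was at most 0.19 CPM in siCtrl and 0.56 CPM in siSirt1. Neither Nfkb1 nor Cxcl10 was called without line 1.

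Further lists gave 1 or 2 calls. Suz12, a Polycomb subunit, rose by 0.38 (SE 0.07, adjusted p = 0.024) as the 1 call among 26 histone-modifying genes, and there was no call without line 1. In the clock list Rora (0.57) and Csnk1e (0.35) rose, 2 of 21, and 0 without line 1. Prkar2a was the 1 gene called of 25 in the protein kinase A list, and Mrpl38 (-0.74) the 1 of 36 mitochondrial ribosomal proteins, and both lists also had 1 lower gene without line 1. Among 20 imprinted growth genes Dcn alone was called, with no call without line 1, and H19, the most abundant transcript of every library, was at -0.15 (SE 0.14, adjusted p = 0.53).

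Markers of other cell types were summed to see which moved with the groups. Smooth muscle and pericyte markers summed to 5790 to 9578 CPM in siCtrl and 3760 to 7203 CPM in siSirt1, and 4 of 13 tested genes fell (Abcc9, Lmod1, Tagln and Acta2), none of them without line 1. Most of that sum was Acta2 and Des, which differentiating myoblasts also express. Of the defining smooth muscle genes, Myh11 was at most 1.57 CPM in any library and Cnn1 did not pass the filter. Fibroblast markers summed to 360 to 1048 CPM in siCtrl and 445 to 1128 CPM in siSirt1, nearly all Col3a1 and Gsn, with 1 of 8 higher (Dcn) and 0 without line 1. Tenocyte markers summed to 111 to 246 and 69.1 to 204 CPM, and 1 of 5 fell, Scx (-0.94), with the same count without line 1. Of 4 tested adipocyte markers only Pparg rose (0 without line 1), while Adipoq, Plin1 and Fabp4 did not pass the filter, and the sums were 5.10 to 52.9 CPM in siCtrl and 11.7 to 68.1 CPM in siSirt1. Schwann cell markers (86.1 to 711 and 62.7 to 587 CPM, nearly all Erbb3), endothelial markers (7.94 to 107 and 11.5 to 46.6 CPM) and leukocyte markers (5.65 to 15 and 3.46 to 13.3 CPM) gave no call. Pecam1, which defines endothelium, and Ptprc, which defines leukocytes, did not pass the filter. The part of other cell types in the decreases of Scx, Tagln and the matrix genes was not tested.

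The last comparison asked which of the named differences also separated siSirt1 from the Lmod1 knockdown. In that fit 2379 of 14998 genes (15.9%) differed at an adjusted p under 0.05. Both comparisons use the same siSirt1 libraries, so a gene that is extreme in them will tend to differ in both. Of the 15 genes with the largest decreases 13 were lower than in siLmod1, and of the 15 with the largest increases 13 were higher. Sirt1 was 2.73 lower on the log2 scale (SE 0.21, adjusted p = 0.00092). Srl (-2.08), Mfap4 (-2.52), Ogn (-2.32) and Fam98a (-1.15) were also lower, and Sema6b (1.43) and Bcl2l11 (0.76) higher. Of the 43 stress response genes, 13 were higher than in siLmod1 and 0 lower (median log2 difference 0.24). Over all genes the share called in either direction was 15.9%. Differences from siLmod1 were not detected for several genes that had differed from siCtrl, with Dnajb9 of the stress list among them. Myl9 differed from siLmod1 by 0.21 (SE 0.20, adjusted p = 0.51), Dnajb9 by -0.08 (SE 0.15, adjusted p = 0.75), Deptor by 0.03 (SE 0.12, adjusted p = 0.88), Mcur1 by 0.07 (SE 0.10, adjusted p = 0.66) and Cpt1a by 0.22 (SE 0.16, adjusted p = 0.37).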

How the data were processed

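RNA of primary myoblasts was measured in 15 libraries. The 10 of siSirt1 and siCtrl were the base of the report, and the 5 of siLmod1 entered 1 comparison and 1 alternative fit. Per the labels' protocols, poly(A) RNA went into TruSeq v2 libraries, and since that kit does not mark strand, reads of antisense or overlapping genes cannot be told apart. The authors deposited raw counts per Ensembl gene and TPM values. The submitters' processing notes name DESeq2 and the build mm10, and the aligner and counter were not given in the sources used here. Among 49315 gene IDs, a symbol was found for 48970, and the rest held 0.032% of counts. Counts of the siSirt1 libraries were identical in both tables that hold them.

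Genes were filtered with filterByExpr, scaled by TMM and tested by edgeR 4.0.16 (quasi-likelihood, R 4.3.3) with the line as a block, and p-values were adjusted by Benjamini-Hochberg over all 14912 genes. The fit had 4 residual degrees of freedom. CPM values use TMM-scaled library sizes. Differences per line are log2(CPM + 0.5). The procedure was tested on simulated counts. The block was used because the design text names 5 lines: after removal of group means, libraries of the same number correlated at 0.324 to 0.826 (5 pairs) and those of different numbers at -0.567 to 0.297 (20 pairs), and line 1 had the lowest value. Nothing states whether the lines came from separate animals. With the block, p-values set the mean siSirt1 minus siCtrl difference against its variation over these lines, estimated partly from all genes. Each line was transfected 1 time per group, so that variation includes the variation between transfections and libraries. The floor of 3 counts covers counting error only.

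The genes and the 52 lists were chosen with earlier results of these data known. Named were, among genes called with at least 5 mean CPM and the same sign in 5 lines, the 15 largest changes in each direction without predicted gene models, up to 4 called members per list with the smallest p, genes called without the block, and a set of fixed genes. Hmga2, Vldlr, Atf4 and the further list members were chosen after their values were seen. Alternatives were DESeq2 1.42.0, limma-voom 3.58.1, other scaling and filters, a fit of all 15 libraries, no block, and leaving out each line. Python 3.11.15 (pandas 2.3.3, numpy 2.4.6, scipy 1.17.1, matplotlib 3.10.9) served for tables and plots. Some list members that are counted are not reported here by name.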

Additional observations from a re-analysis of the deposited data

Results flagged for a closer look

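In 12 of 122 groups of values per library or per line, 1 value lay far from the other 4 of their group, with a gap to the nearest library of more than 0.71 of the group's range. For independent groups of normally distributed values, the rule flags about 1 in 20. Some of these genes were chosen after their values were seen, and siCtrl and siSirt1 share lines. The count of 12 can therefore not be set against that rate. Mfap4 was high in line 2 in both groups, at 76.3 CPM in siCtrl and 7.89 CPM in siSirt1. Adamtsl2 was high in the siSirt1 library of line 2, at 27.2 CPM. Itga7 was high in line 4 in both groups, at 4044 CPM in siCtrl and 2254 CPM in siSirt1. The log2 difference of Lfng was high in line 4, at 2.68. Myog was low in the siSirt1 library of line 4, at 440 CPM. Ccnd1 was high in the siSirt1 library of line 7, at 236 CPM, and Vldlr in the siCtrl library of line 3, at 30.9 CPM. Tek was high in line 4 in both groups, at 104 CPM in siCtrl and 42.0 CPM in siSirt1. The siCtrl library of line 3 had 23192 genes with a count, more than the others of its group, and also the most counts.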

How the results depend on the processing

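Of 150 named genes that were called, none changed direction under the 13 alternatives where it was tested. Tested were 149 with DESeq2, 147 with the 1 CPM filter, 148 without line 3 and 150 in the others. The alternatives reuse the same libraries, and nearly all called genes had the same sign in all 5 lines. A reversal was therefore unlikely from the start, and its absence is no separate support. The count of 1054 called genes (406 higher, 648 lower) became 2005 (805 and 1200) with DESeq2, 2530 (1184 and 1346) in a fit of all 15 libraries and 19 (2 and 17) with no replicate block, with 1440 at an unadjusted p under 0.05. With no filter on low counts it was 1809, of which 1226 were lower. Leaving out 1 line gave 332 to 580 (72 to 166 higher, 260 to 414 lower) from 8 libraries, and 42 to 66 of the named calls were lost each time. Limma-voom (1252), the other scalings (1038 and 1046) and the 1 CPM filter (1111) stayed within 1.5 times. For siSirt1 against siLmod1 the 2379 calls became 229 with no replicate block and 946 to 1771 with 1 line left out. The cause was not tested. The blocked fit of Sirt1 gave -2.18, and with no replicate block it was -2.06, past the threshold no longer (adjusted p = 0.0735, against 9.54e-24 to 0.0171 over the other alternatives). The exact permutation test of Sirt1 (difference -2.19) kept its value with swaps within lines, a form chosen after seeing the data, but p became 0.0625, the smallest possible. Of the 150 named calls, 131 were lost with no replicate block. DESeq2 called 31 sarcomere genes lower in place of 14, 14 calcium handling genes in place of 6, 15 proteasome genes in place of 8 and 14 chaperones in place of 7, and 18 stress response genes higher in place of 13. Genes under a few CPM (Dcn, Ddx60, Cxcl10) are limited by depth.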

Other observations

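Some genes moved in some lines and not in others, and these patterns across lines were seen in the data and were not tested. Hmga2, a chromatin protein of growing cells, measured 50.4, 26.9, 51.8, 47.1 and 63.7 CPM with the control RNA, against 31.4, 35.5, 57.4, 374 and 343 CPM in siSirt1. Lines 4 and 7 were several times higher in the knockdown and the other lines were not, and the gene did not pass the test (log2 fold change 1.04, SE 0.54, adjusted p = 0.27). Ccnd1, the gene of cyclin D1, measured 25.3, 12.4, 47.9, 3.96 and 94.8 CPM with the control RNA, against 18.5, 21.8, 52.3, 63.4 and 236 CPM in siSirt1, again highest over its control in lines 4 and 7 (log2 fold change 1.03, SE 0.55, adjusted p = 0.29). Vldlr, a lipoprotein receptor, showed another order, with 2.73, 5.15, 30.9, 2.17 and 5.79 CPM in siCtrl and 32.2, 29.9, 71.8, 1.89 and 9.41 CPM in siSirt1, and was higher in every line but line 4. Tek, an endothelial receptor gene, lay at 104 and 42.0 CPM in the siCtrl and siSirt1 libraries of line 4 and at most at 0.68 CPM in the other 8 libraries.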
